A study of Homo sapiens with 16 samples.

Results

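The genes described here encode 7 molecules through which tumour cells restrain immune cells: CD274 (PD-L1), CD276 (B7-H3), CD47, NT5E (CD73), PVR (CD155), NECTIN2 (CD112) and LGALS9 (galectin-9). They were taken by symbol from the 4 deposited expression tables, where all 7 were found among 18227 genes. The rule goes by symbol alone and uses no measured value, but the list was drawn up with earlier results of these data known.

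RNA sequencing was done on 2 human lung adenocarcinoma cell lines, A549 and H2023, in which ZC3H12A was knocked out. ZC3H12A encodes Regnase-1, an RNase that degrades mRNAs of inflammatory genes. Each line was sampled as wild type and as knockout, after 3 days of normal culture or 7 days of a stem-cell-enriching culture (oncosphere). This gave 8 groups of 2 libraries, 16 libraries in all. The knockout of each line was 1 clone, named g2-3 in A549 and g2-1 in H2023, so clone and genotype cannot be told apart. Culture type and days in culture changed together. No other genetic change or drug is named in the labels of these groups. The labels do not say whether the 2 libraries of a group came from separate cultures, so the p-values measure only the spread between these libraries. The labels name no immune cells in the cultures.

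CD274 and CD276 belong to the B7 family, and CD274 inhibits T cells through the receptor PD-1. PVR and NECTIN2 are adhesion molecules that bind both the inhibitory receptor TIGIT and the activating receptor CD226 on T and NK cells. CD47 binds SIRPA on macrophages and blocks engulfment. NT5E makes adenosine from AMP outside the cell, and LGALS9 is a sugar-binding protein that binds TIM-3. In epithelial tumours, interferon-gamma raises CD274 and LGALS9, in part through IRF1, which binds interferon elements in promoters.

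The promoter stretch of CD274 and a short piece at the start of LGALS9 are shown because these are the members with a match to an IRF element, the repeat GAAA-2 bases-GAAA on either strand. RefSeq promoter windows of GRCh38.p14, 250 bases before to 50 after each start, were found for 7 of 7 members and searched on both strands. Capitals mark the IRF element, which reads TTTC-2 bases-TTTC in these stretches, and in CD274 also a GAS motif (TTCNNNGAA, an interferon-gamma response element). The CD274 stretch is chr9:5450292-5450502, + strand, directly upstream of the annotated gene, and the LGALS9 piece is chr17:27631159-27631188, + strand, ending on the RefSeq start base, which lies within the GENCODE bounds of the gene.
CD274: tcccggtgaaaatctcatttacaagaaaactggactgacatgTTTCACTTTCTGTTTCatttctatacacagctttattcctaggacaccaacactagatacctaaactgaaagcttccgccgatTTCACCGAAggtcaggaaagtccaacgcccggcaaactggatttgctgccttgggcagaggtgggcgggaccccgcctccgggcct
LGALS9: taacagccaagttgctttggTTTCTATTTC
The CD274 window held 2 overlapping IRF elements, beginning at -208 and -202 from the RefSeq start at base 5450542, and 1 GAS motif at -125 from it. That start lies downstream of the GENCODE start where the printed stretch ends. The LGALS9 window held 1 IRF element, beginning at -9 from its RefSeq start. Of 35116 promoter windows, 3.57% held an IRF element and 7.66% a GAS motif. The hypoxia response core ACGTG, present in 21.4% of windows, was found for CD47 and for 1 promoter of CD276. An NF-kB motif, present in 11.3% of windows, was found in that same CD276 window. These letters are a description of the windows and not a measure of binding.

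In GRCh38 with GENCODE v29 the members lie on 6 chromosomes: CD274 on 9 (5450503 to 5470566), CD276 on 15 (73683966 to 73714518), CD47 on 3 (108043094 to 108091862, minus strand), NT5E on 6 (85449584 to 85495791) and LGALS9 on 17 (27629798 to 27649560). PVR (44643798 to 44663583) and NECTIN2 (44846175 to 44889228) are near each other on chromosome 19. All are annotated as protein-coding, and all but CD47 are on the plus strand. Values are TPM, a transcript abundance scaled for gene length and library size, so levels can be compared between genes.

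Several measurements of the whole libraries stand beside the results. ZC3H12A mRNA fell in A549 normal culture, from 30.7 and 34.9 TPM in wild type to 16.9 and 19.9 TPM in the libraries labelled knockout (log2 difference -0.80, limma adjusted p = 0.00484). In A549 oncosphere culture it was at 48.5 and 49.2 TPM in wild type and 60.2 and 55.6 TPM in labelled knockout (0.24, limma adjusted p = 0.209). That rise passed in the authors' deposited table (0.45, adjusted p = 0.0171). In H2023 the labelled knockout also had the higher levels, at 41.5 and 41.5 against 26.8 and 29.9 TPM in normal culture. In H2023 oncosphere culture they were 94.6 and 69.2 against 32.5 and 26.4 TPM. The mRNA was therefore called lower in labelled knockout in 1 of 4 comparisons. In H2023 oncosphere culture it was called higher (1.43, limma adjusted p = 0.0284), a call lost in 5 of 12 alternatives. The authors' deposited table called it higher in H2023 normal culture (0.55, adjusted p = 0.008). Its level does not show whether Regnase-1 protein was lost, and protein was not measured here. The groups are called labelled knockout throughout. The 6 epithelial markers were all present (summed level 2571 to 13032 TPM), and in A549 normal culture their sum was 2571 to 5009 TPM in labelled knockout against 9175 to 9346 TPM in wild type (4 of 6 called lower). In H2023 oncosphere culture it was 7766 to 8273 TPM in labelled knockout against 4327 to 4565 TPM in wild type (1 of 6 called higher). Of 8 leukocyte markers 3 were measured (CD14, ITGAM and LYZ; none was at 0 in all libraries), summing to 1.53 to 67.2 TPM, and the defining marker PTPRC was not analysed here. Of 5 fibroblast markers 3 were measured, summing to 1.39 to 8.78 TPM. Mitochondrially encoded genes took 10.3 to 18.7% of TPM in normal and 19.5 to 25.6% in oncosphere culture. Read depth per library is not known from TPM.

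The members spanned a wide range of mRNA levels. NECTIN2 (mean 95.03 TPM over the 16 libraries) and PVR (58.7 to 142 TPM) were the highest, with means above those of 92.2% and 91.7% of genes. CD47 (52.6 TPM), NT5E (41.6 TPM) and CD276 (35.9 TPM) followed. LGALS9 (5.18 TPM) and CD274 (1.42 TPM) were low, the mean of CD274 being above that of 23.3% of genes. The spread across libraries ran the other way: the highest library exceeded the lowest 2.4-fold for PVR and 20.8-fold for LGALS9, and CD274 ran from 0.3 to 4.5 TPM. In the authors' deposited tables the mean normalized count of CD274 was 19.5 in A549 normal culture and 27.5 in H2023 oncosphere culture, and that of PVR was 4760 and 3547, so counting error weighs most on CD274.

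**Figure D1:**
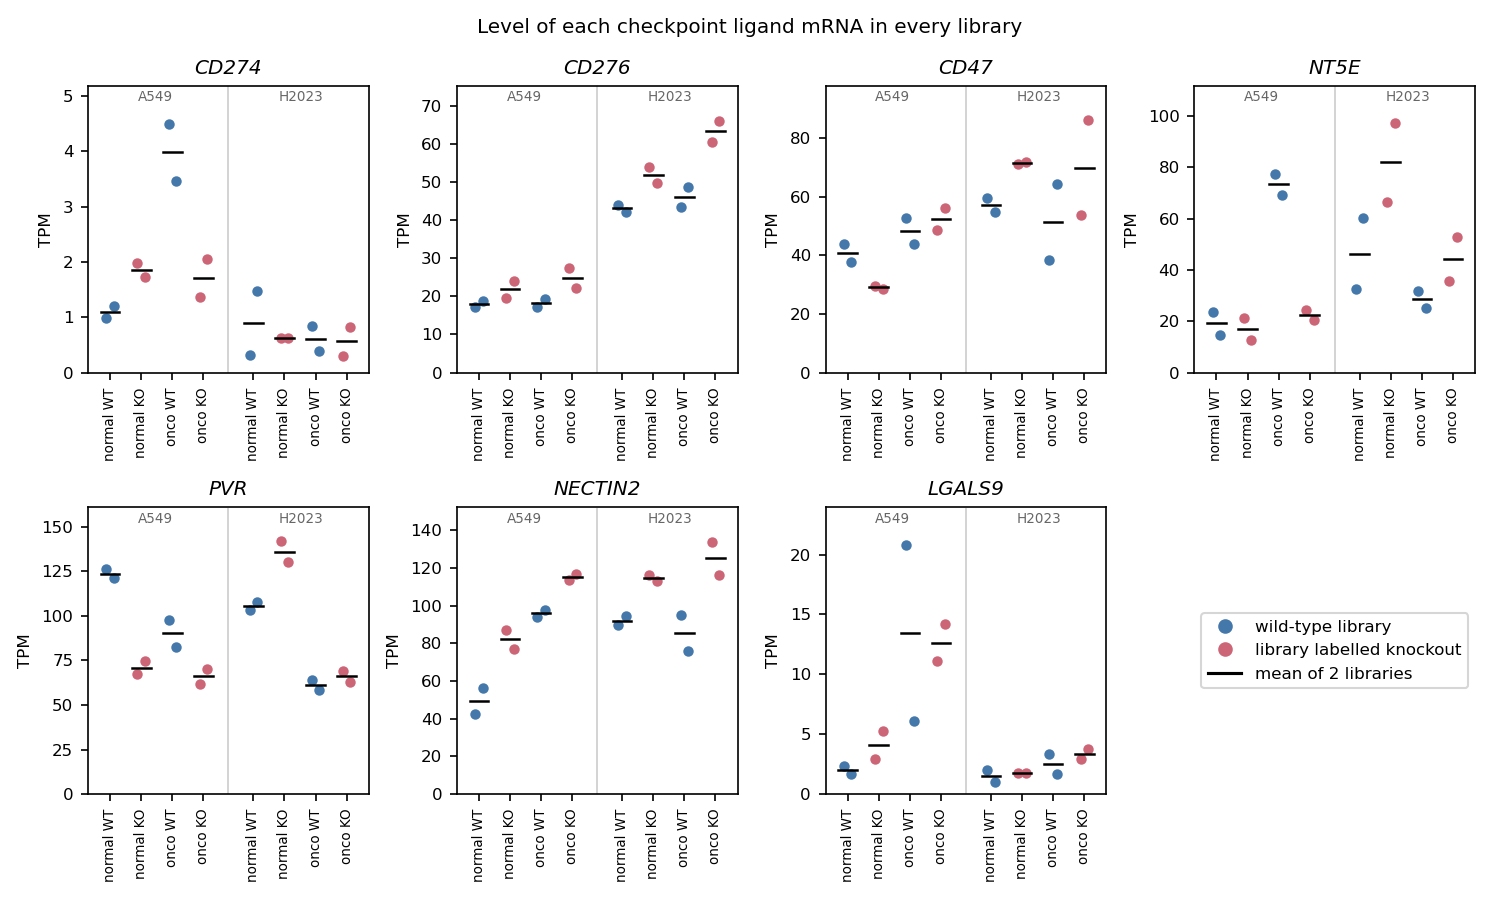
TPM (vertical axis, from 0) of the 7 checkpoint ligand genes in each of the 16 libraries, by line, culture (normal or oncosphere, shortened to onco) and genotype; points are libraries and bars the mean of 2. CD274, NT5E and LGALS9 reached 4.5, 77.4 and 20.8 TPM in A549 wild-type oncosphere libraries, while PVR was highest in normal culture.

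The first comparison asked what the labelled knockout did to the ligands in A549 in normal culture. PVR fell and NECTIN2 rose, so that the balance between the TIGIT ligands was turned around, and CD47 was lower by a call that most alternatives lost. Of the 7 members 1 rose and 2 fell by limma on log2(TPM + 1) (Benjamini-Hochberg over all genes, adjusted p under 0.05). Of all genes 15.4% were called, and the median log2 difference was 0.26 for the members and -0.03 for all genes. In the authors' deposited table PVR, NECTIN2 and LGALS9 passed the same threshold, where 22.1% of genes did.

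PVR stood at 126 and 121 TPM in wild type and at 67.3 and 74.4 TPM in labelled knockout. The groups lay far apart, with no knockout library above 74.4 TPM. The log2 difference was -0.80 (95% interval -1.07 to -0.53, limma adjusted p = 0.00444), and -0.74 (adjusted p = 3.04e-07) in the authors' deposited table. It stayed called in all 12 alternative settings, between -0.87 and -0.68.

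NECTIN2 was at 42.4 and 56.5 TPM in wild type and 87.2 and 77.2 TPM in labelled knockout, again without overlap. Its log2 difference was 0.73 (95% interval 0.41 to 1.05, limma adjusted p = 0.0123), and 0.78 (adjusted p = 3.26e-05) in the authors' deposited table. The call was lost without the first wild-type library (0.53, adjusted p = 0.0538), without the first knockout library (0.65, adjusted p = 0.0765) and in a fit of these 4 libraries alone (adjusted p = 0.0501). The ratio of PVR to NECTIN2 within a library, which no scaling between libraries can alter, was 2.98 and 2.14 in wild type and 0.773 and 0.964 in labelled knockout. PVR was thus the more abundant of the pair in wild type and the less abundant in labelled knockout.

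CD47 was at 44.0 and 37.9 TPM in wild type and 29.7 and 28.4 TPM in labelled knockout. The log2 difference was -0.48 (95% interval -0.79 to -0.17, limma adjusted p = 0.0491), just past the threshold. The call was lost in 9 of 12 alternatives, including each of the 4 that left out a library (adjusted p 0.0685 to 0.233). In the authors' deposited table the difference was -0.09 (adjusted p = 0.809). The TPM-based log2 ratio of CD47 and the authors' value differed by -0.41, where the median gene differed by -0.06. Of 11279 genes with a mean normalized count of at least 100, 2.4% lay as far from that median. Why the 2 measures of CD47 differ was not tested.

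The other 4 members did not pass limma's threshold. CD274 was at 0.98 and 1.2 TPM in wild type and 1.99 and 1.72 TPM in labelled knockout (log2 difference 0.45, adjusted p = 0.174). LGALS9 was at 2.38 and 1.71 against 2.97 and 5.25 TPM (0.72, adjusted p = 0.338), and passed in the authors' deposited table (1.38, adjusted p = 0.014). LGALS9 has near-identical copies in the genome, LGALS9B and LGALS9C, between which reads can be split. CD276 was at 17.2 and 18.7 against 19.5 and 24.1 TPM, and the NT5E libraries overlapped at 23.7 and 14.7 against 21.2 and 12.5 TPM. The intervals of CD276 (-0.10 to 0.63) and NT5E (-0.81 to 0.44) reach to changes as large as those called for CD47.

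The same question in A549 oncosphere culture gave another set. NT5E, CD274 and PVR fell in the libraries labelled knockout, and no member rose. Of all genes 19.5% were called in this contrast, and the members' median log2 difference was 0.12 against 0.03 for all genes. In the authors' deposited table NT5E, PVR and CD276 passed, where 20.7% of genes did. The sum of the 3 measured leukocyte markers was 35.4 to 67.2 TPM in wild type and 30.5 to 35.3 TPM in labelled knockout. Of these markers 1 of 3 was called lower. LYZ was at 18.56 and 6.81 TPM in wild type and at 0.28 TPM and 0 in labelled knockout. CD14 overlapped between the genotypes, at 47.61 and 26.79 against 34.34 and 28.97 TPM. ITGAM did too, at 1.04 and 1.84 against 0.7 and 1.5 TPM. Whether these values mark leukocytes, and their part in these results, was not tested.

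NT5E was at 77.4 and 69.2 TPM in wild type and 24.3 and 20.3 TPM in labelled knockout. Both knockout libraries were near the levels of normal culture, where the 4 A549 libraries ran from 12.5 to 23.7 TPM. The log2 difference was -1.67 (95% interval -2.30 to -1.05, limma adjusted p = 0.00437), and -2.08 (adjusted p = 6.38e-25) in the authors' deposited table. It was called in all 12 alternatives, between -2.08 and -1.55.

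CD274 was at 4.5 and 3.46 TPM in wild type and 1.37 and 2.05 TPM in labelled knockout. The groups did not overlap, although all values were low. The log2 difference was -0.88 (95% interval -1.35 to -0.41, limma adjusted p = 0.0203). The call was lost without the first wild-type library (-0.73, adjusted p = 0.106), without the first knockout library (-0.70, adjusted p = 0.111) and in the 4-library fit (adjusted p = 0.0666). The authors' deposited table gave -1.21 (adjusted p = 0.0696).

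PVR was at 97.9 and 82.7 TPM in wild type and 62.0 and 70.0 TPM in labelled knockout, a smaller gap than in normal culture. The log2 difference was -0.44 (95% interval -0.71 to -0.17, limma adjusted p = 0.033), and -0.49 (adjusted p = 0.012) in the authors' deposited table. Leaving out the first wild-type library or either knockout library ended the call, with adjusted p of 0.163, 0.158 and 0.0651, and so did the 4-library fit (adjusted p = 0.0851).

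CD276 was at 17.1 and 19.4 TPM in wild type and 27.5 and 22.1 TPM in labelled knockout. The libraries did not overlap, but the log2 difference of 0.42 missed limma's threshold (adjusted p = 0.107), while it passed in the authors' deposited table (0.54, adjusted p = 0.03). NECTIN2 stood at 94.1 and 97.8 against 113 and 117 TPM (0.26, 95% interval -0.06 to 0.58). CD47 overlapped, at 52.8 and 43.7 against 48.8 and 56.1 TPM. LGALS9 was the least reproducible, at 20.8 and 6.13 TPM in wild type and 11.1 and 14.2 TPM in labelled knockout.

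In A549 the knockout effects were set against each other between cultures with an interaction term. CD274 alone passed: the effect in oncosphere minus that in normal culture was -1.33 on the log2 scale (95% interval -1.998 to -0.67, limma adjusted p = 0.0374), with 6.65% of all genes called. In 7 of 8 fits that left out a library the call was lost (adjusted p up to 0.121), as it was with a pseudocount of 0.1 TPM (adjusted p = 0.0534) and in the 16-library fit (adjusted p = 0.0523). NT5E came close, at -1.49 (95% interval -2.37 to -0.61, adjusted p = 0.0571), and passed with the replicate number as a block (adjusted p = 0.0209), on genes of at least 1 TPM (adjusted p = 0.0459) and without mitochondrial genes (adjusted p = 0.0398). For PVR the difference between cultures was 0.35 (95% interval -0.03 to 0.73), so its larger fall in normal culture was not shown to differ.

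In H2023 no member passed limma's threshold in either culture. Of all genes 0.806% were called in normal culture, with 3000 genes at an unadjusted p under 0.05, and 1.54% in oncosphere culture, with 3639 at that level. A fit over all 16 libraries called 0 members in normal and 1 in oncosphere culture, NECTIN2 (0.55, adjusted p = 0.0423). In the authors' deposited tables CD47 (0.47, adjusted p = 0.019), NECTIN2 (0.37, adjusted p = 0.0206) and PVR (0.35, adjusted p = 0.024) passed in normal culture, where 10.8% of genes did. None passed in oncosphere culture in the authors' deposited table, where 5.07% of genes did.

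In normal culture PVR was at 103 and 108 TPM in wild type and 142 and 130 TPM in labelled knockout (log2 difference 0.36, 95% interval 0.14 to 0.59, limma adjusted p = 0.145). NECTIN2 was at 89.6 and 94.6 against 116 and 113 TPM (0.31, 95% interval 0.01 to 0.62). CD47 was at 59.4 and 54.9 against 71.2 and 72.0 TPM. None of these differences passed limma's threshold. NT5E was at 32.6 and 60.1 against 66.6 and 97.3 TPM, with a log2 difference of 0.85 and a wide 95% interval, 0.02 to 1.68. CD276 was at 44.0 and 42.1 against 53.9 and 49.6 TPM (0.26, 95% interval 0.02 to 0.50).

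In oncosphere culture CD276 was at 43.5 and 48.6 TPM in wild type and 60.5 and 65.9 TPM in labelled knockout (log2 difference 0.45, 95% interval 0.22 to 0.69, limma adjusted p = 0.0805). NECTIN2 was at 95.1 and 76.2 against 134 and 117 TPM (0.55, 95% interval 0.24 to 0.85, adjusted p = 0.0897). NT5E was at 31.9 and 25.1 against 35.8 and 53.0 TPM (0.61, 95% interval -0.22 to 1.44). The first 2 of these intervals exclude 0, but the p-values over all genes did not pass. CD47 overlapped widely, at 38.6 and 64.3 against 53.9 and 86.0 TPM, and PVR did too, at 64.3 and 58.7 against 69.1 and 63.1 TPM. CD274 never exceeded 1.47 TPM in H2023 and LGALS9 never exceeded 3.8 TPM. For CD274 the sign of the difference was negative from TPM (-0.15 and -0.05) and positive in the authors' deposited tables (0.18 and 0.59), and PVR in oncosphere culture also differed in sign (0.10 against -0.08).

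**Figure D2:**
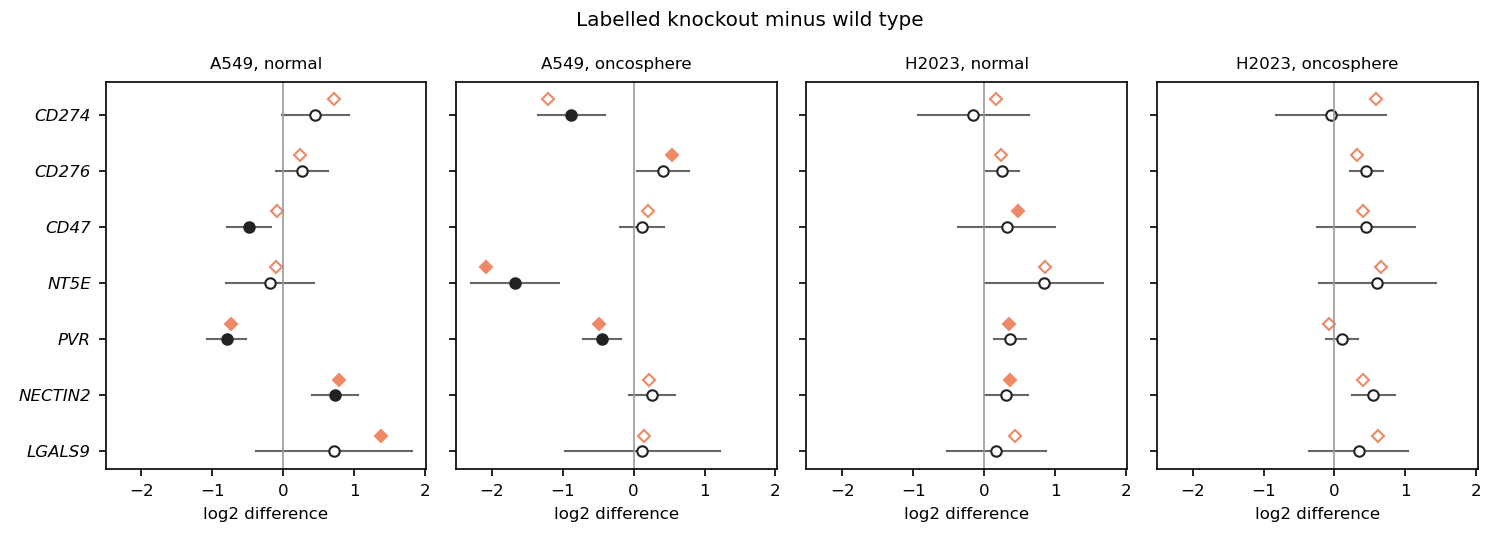
Log2 difference, labelled knockout minus wild type (horizontal axis), for each ligand in 4 panels; circles are limma values on log2(TPM + 1) with 95% intervals, diamonds the authors' deposited values, and filled marks have an adjusted p under 0.05. PVR lies at -0.80 in A549 and 0.36 in H2023 normal culture, and NT5E at -1.67 in A549 oncosphere culture.

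The lines differed in the effect of the labelled knockout, by an interaction test in the fit of 16 libraries. In normal culture PVR alone differed: the effect in H2023 minus that in A549 was 1.16 on the log2 scale (95% interval 0.83 to 1.496, limma adjusted p = 0.000803), with 12.1% of genes called. It was called in all 13 alternatives, between 1.04 and 1.23. In oncosphere culture NT5E (2.28, 95% interval 1.26 to 3.30, adjusted p = 0.00597) and PVR (0.55, 95% interval 0.21 to 0.88, adjusted p = 0.0304) differed, with 16.3% of genes called. NT5E was called in all 13 alternatives, between 2.00 and 2.56. PVR lost the call without the first A549 library of either genotype (adjusted p = 0.113 without the wild-type and 0.101 without the knockout library), the second H2023 wild-type library (0.0858) or the first H2023 knockout library (0.0943). CD276 had nearly the same effect in both lines, with differences of -0.01 (95% interval -0.42 to 0.41) and 0.03 (95% interval -0.38 to 0.45). Each line had 1 clone, so line and clone cannot be told apart in these differences.

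The second question was how oncosphere culture compared with normal culture. In A549 wild type, NT5E, CD274, LGALS9 and NECTIN2 rose and PVR fell, which was 5 of 7 members where 40.6% of genes were called. The members' median log2 difference was 0.96 against -0.02 for all genes. The oncosphere libraries enter both this comparison and the knockout comparison above, so the high wild-type levels of NT5E and CD274 bear on both. Summed leukocyte markers were also higher, at 35.4 to 67.2 against 9.62 to 16.3 TPM, with 2 of 3 called higher. CD14 went from 13.05 and 8.17 to 47.61 and 26.79 TPM. LYZ went from 0 and 0.05 to 18.56 and 6.81 TPM. ITGAM overlapped, at 3.2 and 1.4 TPM in normal and 1.04 and 1.84 TPM in oncosphere culture. Whether these values mark leukocytes, and their part in the comparison, was not tested.

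NT5E went from 23.7 and 14.7 TPM in normal culture to 77.4 and 69.2 TPM in oncosphere culture. The log2 difference was 1.91 (95% interval 1.29 to 2.54, limma adjusted p = 0.00104), and the call was kept in all 10 alternatives (1.59 to 2.24). CD274 went from 0.98 and 1.2 TPM to 4.5 and 3.46 TPM, a log2 difference of 1.25 (95% interval 0.78 to 1.72, adjusted p = 0.00209), called in all 10 alternatives. For both genes the culture groups lay well apart.

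NECTIN2 went from 42.4 and 56.5 TPM to 94.1 and 97.8 TPM (log2 difference 0.96, 95% interval 0.64 to 1.28, limma adjusted p = 0.00117), also called in all 10 alternatives. LGALS9 went from 2.38 and 1.71 TPM to 20.8 and 6.13 TPM (2.04, 95% interval 0.95 to 3.14, adjusted p = 0.0102). The oncosphere libraries differed more than 3-fold for LGALS9, and the value ranged from 1.24 to 2.85 over the alternatives. Its call was lost without the second wild-type library of normal culture (1.88, adjusted p = 0.0556).

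PVR fell from 126 and 121 TPM to 97.9 and 82.7 TPM (log2 difference -0.46, 95% interval -0.73 to -0.19, limma adjusted p = 0.0159). Rescaling TPM without mitochondrial genes ended that call (-0.32, adjusted p = 0.0692), as did leaving out the first normal library (adjusted p = 0.0817) or the second oncosphere library (adjusted p = 0.0862). CD276 was at 17.2 and 18.7 against 17.1 and 19.4 TPM, with an interval of -0.34 to 0.39. CD47 (0.23, adjusted p = 0.203) was past the threshold only after rescaling without mitochondrial genes (0.37, adjusted p = 0.0445) or quantile normalization (0.35, adjusted p = 0.0465).

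In the A549 libraries labelled knockout, CD47 and NECTIN2 rose in oncosphere culture, 2 of 7 members where 20.8% of genes were called. Summed leukocyte markers were higher there too, at 30.5 to 35.3 against 7.14 to 7.69 TPM with 1 of 3 called. CD14 went from 6.88 and 6.61 to 34.34 and 28.97 TPM. LYZ did not exceed 0.28 TPM in these libraries, and ITGAM overlapped between the cultures. Of the epithelial markers 4 of 6 were called higher and 1 lower. Whether the first values mark leukocytes, and the part of either marker set, was not tested. CD47 went from 29.7 and 28.4 TPM to 48.8 and 56.1 TPM (log2 difference 0.83, 95% interval 0.52 to 1.14, limma adjusted p = 0.00424), called in all 10 alternatives. Those alternatives all rest on TPM, and the authors' deposited tables hold no comparison of cultures. In A549 normal culture the knockout difference of CD47 from TPM was not that of the authors, as given above. The bearing of this on the culture difference was not tested. NECTIN2 went from 87.2 and 77.2 to 113 and 117 TPM (0.48, adjusted p = 0.0424), and each of the 4 fits that left out a library lost the call (adjusted p 0.0857 to 0.201), as did quantile normalization (adjusted p = 0.0674). CD274 showed no rise here, at 1.99 and 1.72 TPM in normal and 1.37 and 2.05 TPM in oncosphere culture (-0.09, 95% interval -0.56 to 0.39). NT5E was at 21.2 and 12.5 against 24.3 and 20.3 TPM (0.42, 95% interval -0.20 to 1.05). LGALS9 was at 2.97 and 5.25 against 11.1 and 14.2 TPM, without overlap (1.45, adjusted p = 0.0667). It passed on genes of at least 1 TPM (adjusted p = 0.048) and in the 16-library fit (adjusted p = 0.032).

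In H2023 the only member called between cultures was PVR, which fell in both genotypes. In wild type it went from 103 and 108 TPM to 64.3 and 58.7 TPM (log2 difference -0.77, 95% interval -0.99 to -0.55, limma adjusted p = 0.00434), where 21.4% of genes were called. In labelled knockout it went from 142 and 130 TPM to 69.1 and 63.1 TPM (-1.03, 95% interval -1.25 to -0.81, adjusted p = 0.00115), where 26.9% of genes were called. Summed epithelial markers were lower in oncosphere culture as well, at 4327 to 4565 against 8749 to 9397 TPM in wild type (3 of 6 called lower) and 7766 to 8273 against 12326 to 13032 TPM in labelled knockout (3 of 6 called lower, 1 higher), and their part was not tested. The median of all genes was itself shifted, by -0.18 in wild type and -0.12 in labelled knockout. With TPM rescaled without mitochondrial genes these medians became -0.02 and 0.02, and the share of called genes that were higher went from 18.5% to 44.7% and from 28.6% to 50.7%. Under every alternative PVR stayed called, between -0.83 and -0.50 in wild type and between -1.10 and -0.81 in labelled knockout.

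The other members in H2023 gave no call between cultures in the same fits. NT5E was at 32.6 and 60.1 against 31.9 and 25.1 TPM in wild type (log2 difference -0.63, limma adjusted p = 0.242) and at 66.6 and 97.3 against 35.8 and 53.0 TPM in labelled knockout (-0.87, adjusted p = 0.112). These values were lower in oncosphere culture, where A549 wild type was higher. CD276 in labelled knockout, at 53.9 and 49.6 against 60.5 and 65.9 TPM, missed the threshold (0.28, adjusted p = 0.0779) and passed without mitochondrial genes (0.51, adjusted p = 0.0148) and after quantile normalization (0.50, adjusted p = 0.0136). The interaction of genotype and culture in H2023 called 0 members and 0.0% of genes by limma, with 1294 genes at an unadjusted p under 0.05 and 1 gene in the 16-library fit. For CD274 that interaction was 0.10 with an interval of -1.001 to 1.198, at levels of 0.3 to 1.47 TPM that leave little room for a fall on this scale. The CD274 effects of the lines were compared directly in oncosphere culture and did not pass (0.83, 95% interval -0.03 to 1.68, adjusted p = 0.181).

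**Figure D3:**
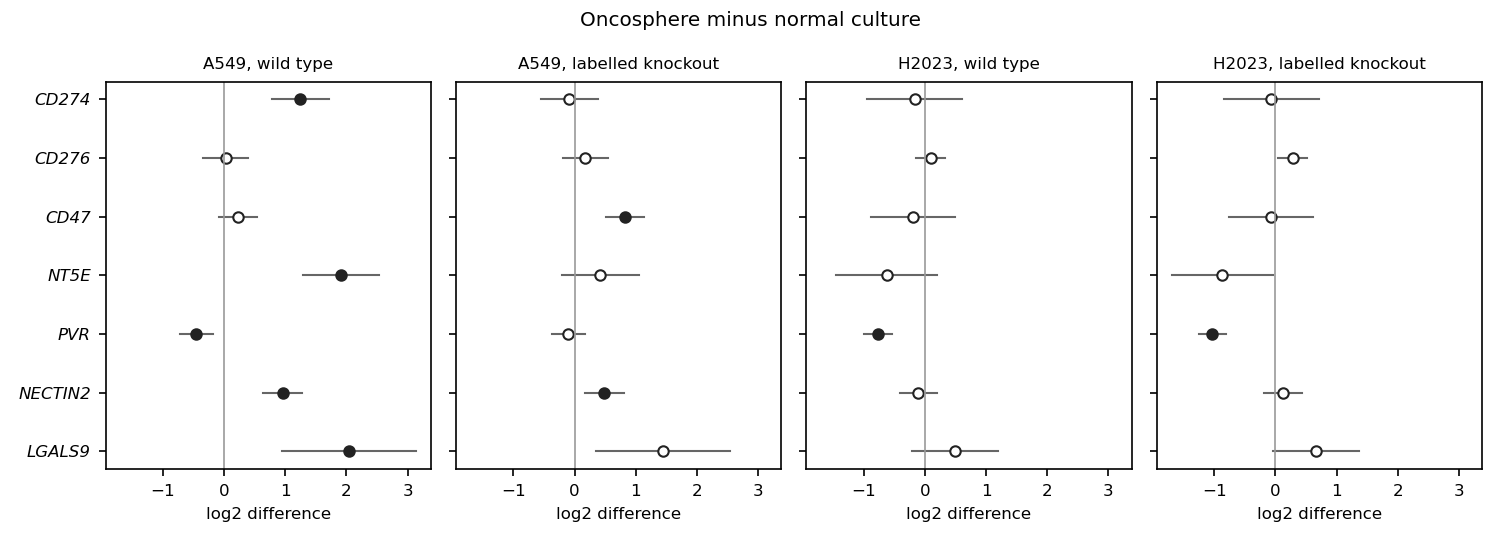
Log2 difference, oncosphere minus normal culture (horizontal axis), for each ligand in 4 panels of line and genotype; circles are limma values with 95% intervals, filled where the adjusted p is under 0.05. In A549 wild type NT5E, CD274, LGALS9 and NECTIN2 lie at 1.91, 1.25, 2.04 and 0.96, whereas in H2023 only PVR is filled, at -0.77 and -1.03.

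The third question was how the wild-type lines differed. CD276 was higher in H2023 in both cultures: 44.0 and 42.1 against 17.2 and 18.7 TPM in normal culture (log2 difference 1.22, limma adjusted p = 2.71e-05), and 43.5 and 48.6 against 17.1 and 19.4 TPM in oncosphere culture (1.29, adjusted p = 1.36e-05). No H2023 library of any group was below 42.1 TPM and no A549 library was above 27.5 TPM. In normal culture NECTIN2 (0.90, adjusted p = 0.000308) and NT5E (1.199, adjusted p = 0.0117) were also higher in H2023, 3 of 7 members where 41.5% of genes were called. NT5E lost the call without the second wild-type library of A549 (0.87, adjusted p = 0.109) or of H2023 (0.77, adjusted p = 0.127) and in a fit of the 4 libraries (adjusted p = 0.0555). The median of all genes in this contrast was 0.12, and 0.00 after quantile normalization, when the share of called genes higher in H2023 went from 64.1% to 49.9%.

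In oncosphere culture 5 of 7 members differed between the wild-type lines, where 47.8% of genes were called. CD274 (-1.63, 95% interval -2.24 to -1.03, limma adjusted p = 0.000481), LGALS9 (-1.86, adjusted p = 0.00403), NT5E (-1.34, adjusted p = 0.00543) and PVR (-0.54, adjusted p = 0.00146) were lower in H2023, and CD276 was higher. NT5E was therefore higher in H2023 in normal culture and lower in oncosphere culture. LGALS9 missed the threshold in the fit of the 4 libraries (adjusted p = 0.0632). NECTIN2 was at 95.1 and 76.2 TPM in H2023 and 94.1 and 97.8 TPM in A549 (-0.17, 95% interval -0.47 to 0.13). CD47 did not pass in either culture, at 0.48 (adjusted p = 0.118) and 0.05 (adjusted p = 0.876).

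Ordered by group mean, CD274 was highest in A549 wild-type oncosphere culture (3.98 TPM), apart from the next group (1.86 TPM), and its 4 lowest groups, all H2023, overlapped. The 4 H2023 groups of CD276 (43.0 to 63.2 TPM) stood above the 4 A549 groups (17.9 to 24.8 TPM). CD47 groups overlapped along the order except the lowest, A549 labelled knockout in normal culture (29.1 TPM). NT5E had a pair of high groups that overlapped, H2023 labelled knockout in normal culture (81.9 TPM) and A549 wild type in oncosphere culture (73.3 TPM). The 4 highest PVR groups were each apart from the next (136, 124, 105 and 90.3 TPM), and the 4 lowest overlapped (61.5 to 70.9 TPM). NECTIN2 had 3 overlapping groups on top, all labelled knockout (115 to 125 TPM), and A549 wild type in normal culture apart at the bottom (49.4 TPM). LGALS9 stood above 12 TPM in both A549 oncosphere groups (13.5 and 12.7 TPM) and at 4.11 TPM or less in the other 6.

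Over the 8 group means of log2(TPM + 1), among 10725 genes with a mean of at least 5 TPM, genes most like each member were CHMP5 and PLA2G6 for CD274 (Pearson r 0.982 and 0.975), SYNRG and MAPKBP1 for CD276 (0.993 and 0.991), PTPA and CMTM4 for CD47 (0.968 and 0.961), and TERF2 for NT5E (0.962). For PVR they were MRPL4 and GLDC (0.974 and 0.972), for NECTIN2 TECPR2 and HERC2P3 (0.980 and 0.969) and for LGALS9 VAMP2 and MAGED2 (0.982 and 0.978). These describe 8 points that share 2 lines and 2 cultures, and the best of many genes is high by selection. Between members the highest value was 0.78 for CD274 with LGALS9 and the lowest -0.80 for CD274 with CD276.

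The pathway around each member was read from lists of known genes. Of 22 listed regulators of CD274, all measured, 3 rose and 2 fell in the A549 libraries labelled knockout in normal culture, and 6 rose and 3 fell in oncosphere culture, where 15.4% and 19.5% of all genes were called. In H2023 1 fell in normal and 1 rose in oncosphere culture, where 0.806% and 1.54% of all genes were called. The authors' deposited tables called 4 and 2 of these regulators, where 10.8% and 5.07% of genes passed. CMTM6, which protects PD-L1 protein from lysosomal degradation, rose in A549: 32.3 and 30.8 against 47.2 and 46.3 TPM in normal culture (log2 difference 0.55, limma adjusted p = 0.0106) and 31.2 and 31.7 against 43.7 and 48.9 TPM in oncosphere culture (0.54, adjusted p = 0.00805). The call was lost in 3 and 1 of the 4 fits that left out a library. ZFP36 (tristetraprolin), which destabilises AU-rich mRNAs such as that of CD274, was at 71.3 and 93.5 TPM in A549 wild-type oncosphere libraries and fell to 30.04 and 29.5 TPM in labelled knockout (-1.43, adjusted p = 0.000892). In normal culture ZFP36 was higher in labelled knockout (0.59, adjusted p = 0.0434), a call lost in 6 of 12 alternatives.

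Of the interferon pathway, IRF1 and the kinase JAK2 did not pass in any of the 4 knockout comparisons. In A549 oncosphere culture IRF1 was at 32.8 and 17.5 TPM in wild type and 27.1 and 23.9 TPM in labelled knockout (log2 difference 0.08, limma adjusted p = 0.894). JAK2 was at 4.05 and 4.31 against 4.73 and 4.22 TPM there (0.08, adjusted p = 0.865). The libraries of both genes overlapped. B3GNT3, a glycosyltransferase that modifies PD-L1, fell in A549 in both cultures, from 10.8 and 7.03 to 0.49 and 0.51 TPM (-2.70, adjusted p = 0.000476) and from 28.6 and 25.8 to 9.83 and 10.6 TPM (-1.33, adjusted p = 0.00366). HIP1R, which sends PD-L1 to the lysosome, fell in A549 oncosphere culture (-1.11, adjusted p = 0.00771), a call lost without the second knockout library (-0.997, adjusted p = 0.0573). In A549 normal culture HIP1R was at 13.6 and 13.1 against 7.02 and 8.89 TPM (-0.69, adjusted p = 0.059), and passed on genes of at least 1 TPM (adjusted p = 0.0451), in the 16-library fit (adjusted p = 0.0479) and in the authors' deposited table (-1.05, adjusted p = 1.76e-06).

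Of 28 other checkpoint ligands and immune-modulating surface genes, 22 were measured, and 20 of them reached 1 TPM in some group. In A549 labelled knockout 1 rose and 3 fell in normal culture and 2 rose and 8 fell in oncosphere culture, where 15.4% and 19.5% of all genes were called. In H2023 1 rose in normal and 3 rose in oncosphere culture, where 0.806% and 1.54% of all genes were called. The authors' deposited tables called 5 and 4 of the list, where 10.8% and 5.07% of genes passed. CD70, the ligand of CD27, rose in all 4 comparisons. In A549 it was at 3.47 and 3.40 against 9.64 and 8.46 TPM in normal culture (log2 difference 1.18, limma adjusted p = 0.00417) and at 4.51 and 3.62 against 13.6 and 14.4 TPM in oncosphere culture (1.57, adjusted p = 0.000758), called in all 12 alternatives of each. In H2023 CD70 was at 5.75 and 4.77 against 15.9 and 17.1 TPM (1.49, adjusted p = 0.0321) and at 7.46 and 5.45 against 28.8 and 27.5 TPM (1.98, adjusted p = 0.0154). The H2023 calls of CD70 were lost in 4 and 3 of the 4 fits that left out a library, with every value above 1.37.

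FGL1, a secreted ligand of LAG-3, fell in A549 in both cultures. It was at 215 and 178 TPM in wild-type oncosphere libraries and 52.6 and 55.6 TPM in labelled knockout (log2 difference -1.83, limma adjusted p = 0.000747), and in normal culture at 16.9 and 26.6 against 7.40 and 8.45 TPM (-1.32, adjusted p = 0.00485). In H2023 oncosphere culture FGL1 was at 15.7 and 23.0 against 5.29 and 7.55 TPM (-1.45, adjusted p = 0.11), and passed in the 16-library fit (adjusted p = 0.0216) and in the authors' deposited table (-1.68, adjusted p = 0.000126). FGL1 was low in H2023 normal culture, at 0.73 and 2.51 against 0.30 and 0.10 TPM (-1.04, limma adjusted p = 0.256). HHLA2, another B7 family member, was at 2.28 and 3.69 TPM in A549 wild-type oncosphere libraries and at no more than 0.19 TPM in any other library. It was called lower in the labelled knockout of that culture (adjusted p = 0.00036).

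Of 15 genes of extracellular adenosine handling, 14 were measured. In A549 labelled knockout 3 fell in normal and 4 fell in oncosphere culture and none rose, where 15.4% and 19.5% of all genes were called. In H2023 limma called 0 in normal culture, the 16-library fit called 2 and the authors' deposited table called 3, and 1 rose in oncosphere culture. Of all genes limma called 0.806% in H2023 normal and 1.54% in H2023 oncosphere culture. For normal culture the 16-library fit called 546 of 18227 genes, and 10.8% passed in the authors' deposited table. The median log2 difference of the list in A549 was -0.38 and -0.27, against -0.03 and 0.03 for all genes. ENTPD2, which hydrolyses extracellular ATP upstream of NT5E, went from 13.6 and 11.2 to 0.80 and 1.01 TPM in oncosphere culture (-2.81, limma adjusted p = 0.000491). ENPP1, which cleaves ATP and cGAMP, went from 7.87 and 7.58 to 2.24 and 2.54 TPM there (-1.37, adjusted p = 0.00153). Both fell with NT5E, in the same libraries. SLC29A2, a nucleoside transporter, fell in normal culture from 20.4 and 24.2 to 9.08 and 7.66 TPM (-1.31, adjusted p = 0.00185).

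Of the 7 genes around CD47, 3 rose and 1 fell in A549 labelled knockout in normal culture, and 3 rose and 2 fell in oncosphere culture, where 15.4% and 19.5% of all genes were called. In H2023 limma called 0 in normal culture, where the authors' deposited table called 2, and 1 rose in oncosphere culture. Of all genes limma called 0.806% and 1.54% in these H2023 cultures, and 10.8% passed in the authors' deposited table for normal culture. SIRPA, the receptor of CD47, fell in A549 from 38.0 and 31.0 to 8.06 and 7.58 TPM in normal culture (log2 difference -2.004, limma adjusted p = 0.000409) and from 18.4 and 20.3 to 9.83 and 9.62 TPM in oncosphere culture (-0.92, adjusted p = 0.00361). In H2023 SIRPA was higher in labelled knockout without overlap: 18.9 and 23.7 against 35.3 and 30.5 TPM in normal culture (0.61, adjusted p = 0.176) and 12.8 and 16.8 against 24.8 and 23.5 TPM in oncosphere culture (0.68, adjusted p = 0.104). The first passed in the authors' deposited table (0.62, adjusted p = 0.00151) and the second in the 16-library fit (adjusted p = 0.028). LRP1, the receptor of calreticulin, rose in normal culture (2.04, adjusted p = 0.00109) and fell in oncosphere culture (-0.91, adjusted p = 0.0185, lost in 2 of 4 fits that left out a library). In H2023 oncosphere culture LRP1 rose from 27.6 and 23.1 to 56.6 and 54.3 TPM (1.11, adjusted p = 0.0473), a call lost in 7 of 12 alternatives. ITGB3, an integrin subunit that pairs with ITGAV, rose in A549 from 0.67 and 0.62 to 26.6 and 13.3 TPM in normal culture (3.59, adjusted p = 0.00484) and from 0.37 and 2.05 to 17.5 and 5.96 TPM in oncosphere culture (2.47, adjusted p = 0.0158, lost in 2 of 4 fits that left out a library).

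Of the 7 nectins and related molecules, 0 rose and 1 fell in A549 labelled knockout in normal culture, and 3 rose and 1 fell in oncosphere culture, where 15.4% and 19.5% of all genes were called. In H2023 limma called 0 in both cultures, where 0.806% and 1.54% of all genes were called. The authors' deposited table called 3 in H2023 normal culture, where 10.8% of genes passed. In H2023 oncosphere culture 1, NECTIN3, passed on genes of at least 1 TPM (limma adjusted p = 0.0418), without mitochondrial genes (0.0496) and with the replicate block (0.0434). AFDN, the adaptor that ties nectins to actin, fell in A549 from 26.6 and 25.9 to 18.6 and 17.6 TPM (log2 difference -0.51, limma adjusted p = 0.03) and from 33.4 and 32.1 to 19.8 and 16.3 TPM (-0.83, adjusted p = 0.00313). The first of these calls was lost in each fit that left out a library. NECTIN3, a partner of PVR and NECTIN2, rose in A549 oncosphere culture from 10.7 and 15.1 to 28.2 and 22.1 TPM (0.92, adjusted p = 0.0162, lost in 2 of 4 such fits), and CADM4 from 9.47 and 9.16 to 17.6 and 18.4 TPM (0.88, adjusted p = 0.0249, lost in all 4).

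Of 10 other galectins, 8 were measured. In A549 labelled knockout 4 rose and 1 fell in normal culture and 2 rose and 2 fell in oncosphere culture, where 15.4% and 19.5% of all genes were called. In H2023 limma called 0 in both cultures, as did the authors' deposited tables, where 0.806% and 1.54% of all genes were called by limma. LGALS9C, a near-identical copy of LGALS9, rose from 0.31 and 0.26 to 5.74 and 2.13 TPM in normal culture (log2 difference 1.84, limma adjusted p = 0.00937, lost in 1 of 4 fits that left out a library) and from 3.84 and 3.70 to 17.5 and 19.8 TPM in oncosphere culture (2.04, adjusted p = 0.00413). LGALS9B, another copy, was at 2.05 and 3.38 against 10.5 and 13.9 TPM in oncosphere culture. In labelled knockout the copies together therefore held more TPM than LGALS9 itself in that culture. LGALS2, which is no near copy, was at 28.6 and 19.8 TPM in A549 wild-type oncosphere libraries and at 0.31 TPM and 0 in labelled knockout (adjusted p = 7.95e-05). LGALS4, an intestinal-type galectin, was at 34.0 and 12.9 TPM there and fell to 0.93 and 1.16 TPM (-3.43, adjusted p = 0.00171). Of 7 receptors that bind the members on immune cells, 3 were measured and none was called in a knockout comparison by limma, the authors' deposited tables or any alternative.

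**Figure D4:**
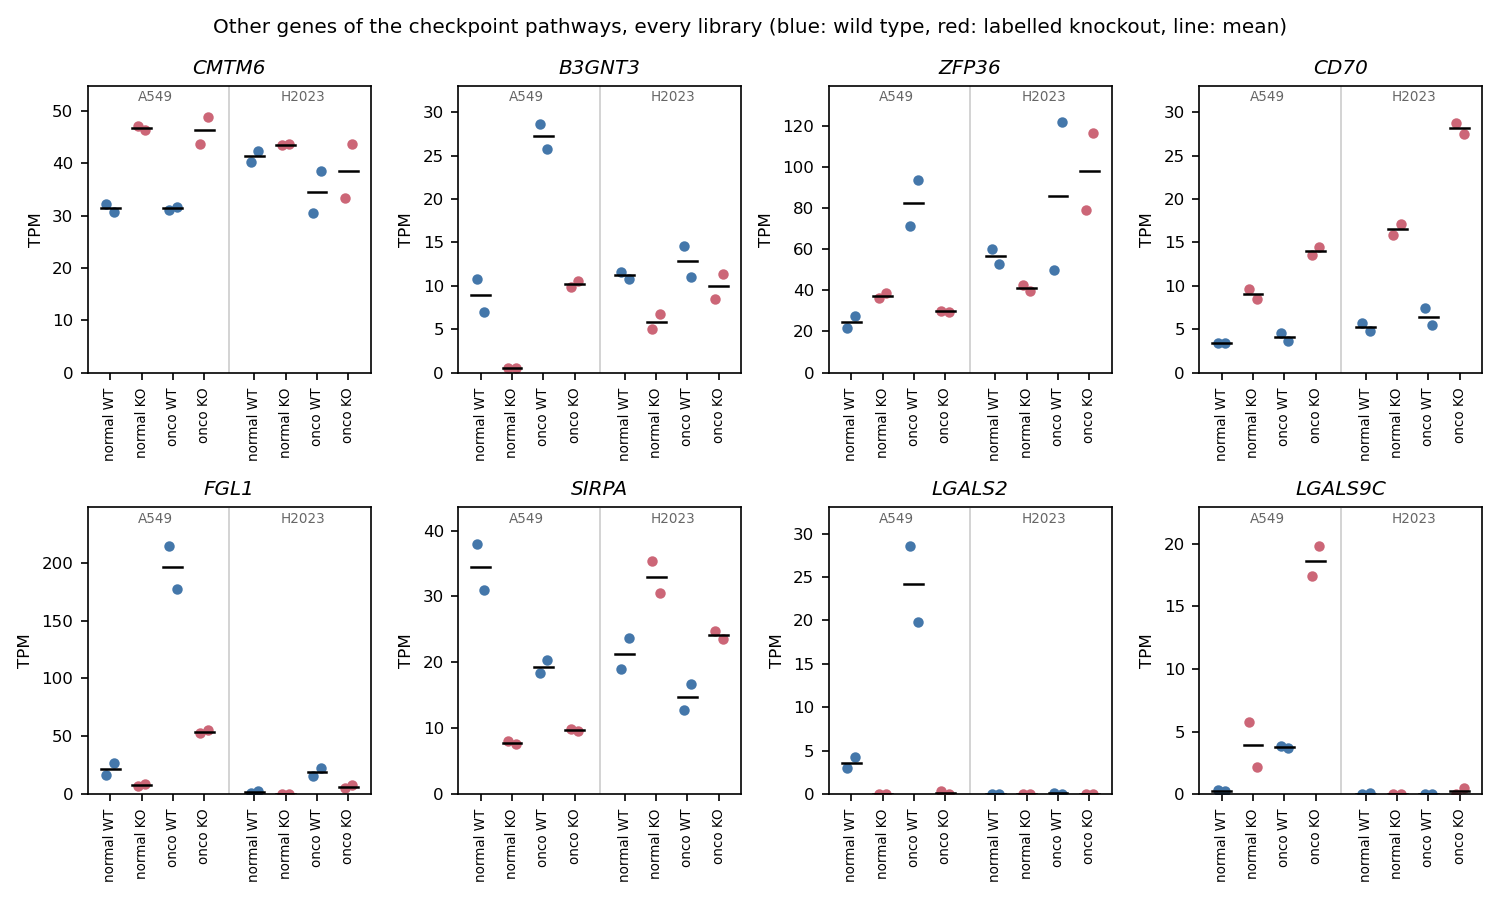
TPM (vertical axis, from 0) of 8 genes around the checkpoint ligands in each of the 16 libraries; points are libraries, bars the mean of 2, and onco is oncosphere culture. CD70 is higher in the labelled knockout in all 4 comparisons, while CMTM6, LGALS2 and LGALS9C separate the genotypes in A549. FGL1 is lower in the labelled knockout in all 4, and SIRPA is lower in A549 and higher in H2023. The H2023 differences of FGL1 and SIRPA were not called by limma.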

How the data were processed

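Messenger RNA libraries were made from 1 ug of total RNA with a stranded poly(A) kit, per the labels' protocols. HISAT2, StringTie and GRCh38 are named in the submitters' processing notes, whose versions are not given in the sources used here. Per the file headers, each of the 4 deposited tables (1 per line and culture) holds TPM for its 4 libraries, and a mean normalized count (a signal with no per-library depth), a log2 fold change, its standard error and p-values under DESeq2's column names. The authors' log2 values and adjusted p-values were copied unchanged. No raw counts were used and 0 sample columns were left unmapped.

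From the TPM, log2(TPM + 1) was modelled with limma 3.58.1 in R 4.3.3, using its trended prior variance. This scale understates changes of low genes. All 18227 genes entered without a filter, over the 8 libraries of a line (4 residual degrees of freedom) or all 16 (8 residual degrees of freedom). Tests were two-sided with Benjamini-Hochberg adjustment at 0.05. Comparisons between cultures and lines cross tables and rest on TPM being scaled within each library. The fit was tested on simulated data. The members and lists were chosen with earlier results of these data known. From each list up to 3 called genes with the largest log2 difference over the knockout contrasts were named, besides IRF1, JAK2, CMTM6, ZFP36 and ZC3H12A. LGALS9B was added after its values were seen. Alternatives were a pseudocount of 0.1 TPM, a mean of at least 1 TPM, rescaling without 15 mitochondrial genes, quantile normalization, a replicate block, leaving out each library, other library sets and the authors' deposited tables. A few genes that this rule names are not reported here.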

Additional observations from a re-analysis of the deposited data

Results flagged for a closer look

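For 4 results a test of the difference itself found that the effect of the labelled knockout was not the same in 2 settings. The effect on CD274 in A549 differed between oncosphere and normal culture by -1.332 on the log2 scale. The effect on PVR differed between H2023 and A549 by 1.161 in normal culture and by 0.547 in oncosphere culture. The effect on NT5E differed between H2023 and A549 by 2.28 in oncosphere culture. The first and the PVR value in oncosphere culture lost the call when single libraries were left out, and the other 2 did not. With 2 libraries in each group, no group was large enough to look for a single library far from the others.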

How the results depend on the processing

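With 2 libraries a group, low TPM and unknown read depth limit CD274 and LGALS9 most. Of 1129 single-gene values of the members under an alternative, 1065 stayed on the same side of the threshold, 46 lost a call and 18 gained one. Only a called result can lose its call, and the 1129 values include those of uncalled results. The share that stayed is therefore no measure of how firm the calls are. No called value changed sign, but 54 values that were not called did, all from a log2 difference of at most 0.596 in size.

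Leaving out 1 library at a time, the members called ranged from 1 to 2 for the knockout comparison in A549 normal culture (3 with all libraries), 1 to 3 in A549 oncosphere culture (3), 1 to 1 for culture in A549 labelled knockout (2), 0 to 1 for the A549 interaction (1) and 1 to 2 for the line difference of the knockout effect in oncosphere culture (2). Fits of the 4 libraries alone, which use fewer libraries, called 1 and 1 members in the A549 knockout comparisons. The A549 interaction called 0 members with a pseudocount of 0.1 TPM and in the 16-library fit, and 2 on genes of at least 1 TPM, without mitochondrial genes and with the replicate block. In H2023, the authors' deposited table called 3 in normal culture, the 16-library fit 1 in oncosphere culture, and rescaling without mitochondrial genes or quantile normalization 2 for culture in labelled knockout. Quantile normalization called 1 for culture in A549 labelled knockout. The cause of these changes in the calls was not tested.

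Over all genes, the knockout comparison in H2023 normal culture called 147 genes, 295 with the filter, 546 in the 16-library fit, 0 in the 4-library fit and 1665 in the authors' deposited table, and 0 to 39 leaving out a library. In H2023 oncosphere culture 281 genes were called, against 485, 1014, 0, 816 and 1 to 22. Culture in H2023 wild type called 3901 genes, 2285 without mitochondrial genes and 2360 after quantile normalization. Leaving out a library gave 948 to 1683 genes in A549 normal culture (2799 with all) and 1786 to 2843 in A549 oncosphere culture (3548). For culture it gave 4924 to 6105 in A549 wild type (7392), 2010 to 2436 in A549 labelled knockout (3784), 1697 to 2630 in H2023 wild type (3901) and 2090 to 3171 in H2023 labelled knockout (4895). For the A549 interaction it gave 137 to 971 (1212), and for the line differences of the knockout effect 1175 to 1908 in normal (2199) and 1911 to 2715 in oncosphere culture (2966).

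Replicate numbers are shared between groups, but nothing says that they mark a shared day. Deviations of same-numbered libraries correlated between -0.025 and 0.461, over 2 numbers. The highest value was that of labelled knockout and wild type in H2023 oncosphere culture, and the next was 0.162. The replicate block removed the call of CD47 in A549 normal culture (adjusted p = 0.053), leaving 2 members there, added that of NT5E in the A549 interaction (adjusted p = 0.0209), and changed no other call of a member.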
